A study of Mus musculus with 36 samples.

Results

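The collagen chain genes were taken as every row of the liver expression table whose gene name consists of Col, a number, the letter a and a number, which gave 44 of 49315 rows. Of these, 11 encode chains of the fibrillar collagens, 8 encode chains of basement membrane collagens and 25 encode other chains, among them the beaded-filament, fibril-associated, short-chain and transmembrane collagens. The rule itself used gene names alone. Of the 44, 22 reached at least 1 TPM (transcripts per 1000000 transcripts, a unit corrected for gene length) in at least 4 of 36 livers and were tested: 7 fibrillar, 5 basement membrane and 10 other chains. The other 22 lay below that filter, and 6 of the 22 tested genes averaged under 1 TPM in control livers on chow (Col5a2, Col16a1, Col12a1, Col8a1, Col9a3 and Col20a1), so these 6 were tested because they were higher in other groups or in single livers.

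Livers came from mice in which the tryptophan (W) at residue 441 of the liver X receptor LXRalpha had been changed to phenylalanine (F) by CRISPR. LXRalpha is a nuclear receptor that is activated by oxidised cholesterol and controls lipid genes. Mice were homozygous controls (W/W), heterozygotes (W/F) or homozygous mutants (F/F). Each genotype was kept on normal chow, on a MASH diet (Teklad TD.96121, 4 weeks, rich in fat and cholesterol; MASH stands for metabolic dysfunction-associated steatohepatitis) with vehicle, or on the MASH diet with the LXR agonist T0901317 (10 mg/kg by daily gavage for the final 2 weeks). There were 4 male mice of 11 to 12 weeks in each of the 9 groups. "On the MASH diet" without mention of T0901317 refers below to the vehicle groups. The chow mice were a separate cohort, so diet and cohort cannot be told apart, and the labels name no cell type to which the mutation was restricted. TPM values do not show the changed base, so the genotype labels were taken as given. The labels spell the gene of LXRalpha Nr1h2, whereas its usual mouse symbol is Nr1h3.

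Collagens are proteins built from chains wound into a triple helix, most of them secreted. Fibrillar collagens, above all types I, III and V, form the cross-linked fibres of scar tissue, while type IV collagen forms the sheet-like network of basement membranes, with types XV and XVIII at its edges. Type VI collagen forms beaded filaments around cells, and types XII and XIV attach to the surface of fibrils. In liver, stellate cells and portal fibroblasts that turn into myofibroblasts are known as the main source of fibrillar collagen, whereas hepatocytes are known to make type XVIII collagen, the precursor of endostatin. Livers were measured whole, so more cells of a type and more RNA per cell cannot be told apart.

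Several collagen genes that are paired in the protein are also neighbours in the genome (GRCm38, GENCODE M21 gene models). Col1a1 (chr11:94936224-94953042, plus strand) and Col1a2 (chr6:4504814-4541544, plus strand), whose chains join in type I collagen, lie on different chromosomes. Col3a1 (chr1:45311538-45349706, plus strand) and Col5a2 (chr1:45374321-45503282, minus strand) lie 24.6 kb apart with their 3′ ends facing each other. Col4a1 (chr8:11198423-11312826, minus strand) and Col4a2 (chr8:11312805-11449287, plus strand) start head to head, and their annotated first exons overlap by 22 bases. Col6a1 (chr10:76708792-76726168) and Col6a2 (chr10:76595762-76623630) lie 85.2 kb apart on the minus strand, and Col6a3 (chr1:90765923-90843971) lies on another chromosome. Col5a1 (chr2:27886425-28039514) and Col5a3 (chr9:20770050-20815067) encode chains of type V collagen. Exon bases shared with another gene made up at most 6.07% of a member's exon length (Col9a3), and whether strand was used in counting is not given in the sources used here.

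Col3a1 and Col5a1 were called higher in F/F than in W/W both on chow and on the MASH diet with vehicle. On the deposited TPM, Col5a3 was called in neither of these comparisons. It was lower on the MASH diet once each library was rescaled to a common median. The sequences below show the start of these 3 fibrillar genes and the stretch shared by Col4a1 and Col4a2. They are the 250 bases before the annotated start of each gene and the overlap of the first exons, read 5′ to 3′ on the strand of the gene (for the overlap, the plus strand) from RefSeq's GRCm38.p6 table. Capitals mark the CCAAT box (CCAAT or its reverse complement ATTGG) and the GC box (GGGCGG or CCGCCC).
Col3a1, chr1:45311288-45311537, plus strand: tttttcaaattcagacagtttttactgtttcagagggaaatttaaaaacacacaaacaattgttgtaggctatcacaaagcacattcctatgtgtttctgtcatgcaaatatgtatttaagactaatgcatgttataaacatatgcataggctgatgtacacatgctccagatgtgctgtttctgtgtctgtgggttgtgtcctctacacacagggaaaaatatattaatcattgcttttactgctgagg
Col5a1, chr2:27886175-27886424, plus strand: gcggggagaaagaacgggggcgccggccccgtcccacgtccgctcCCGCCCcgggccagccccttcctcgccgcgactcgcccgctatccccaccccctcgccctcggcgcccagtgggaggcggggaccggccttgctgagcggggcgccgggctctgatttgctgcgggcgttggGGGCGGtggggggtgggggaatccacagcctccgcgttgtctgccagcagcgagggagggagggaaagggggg
Col5a3, chr9:20815068-20815317, minus strand: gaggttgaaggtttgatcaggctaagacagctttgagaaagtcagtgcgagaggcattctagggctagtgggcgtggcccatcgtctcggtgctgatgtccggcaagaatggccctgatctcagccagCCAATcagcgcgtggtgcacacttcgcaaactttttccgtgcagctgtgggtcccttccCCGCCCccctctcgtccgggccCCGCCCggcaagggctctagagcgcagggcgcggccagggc
Col4a1 and Col4a2, first-exon overlap, chr8:11312805-11312826: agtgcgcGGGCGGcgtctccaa

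The Col3a1 window held neither set of letters, the Col5a1 window held 2 GC boxes, the Col5a3 window held 1 CCAAT box and 2 GC boxes, and the 22-base overlap held 1 GC box. Promoter windows were found in the table for 35 of 44 collagen genes (38 windows) and for 17 of the 22 tested ones (19 windows). The CCAAT box, on either strand, stood in 13 of the 38 collagen windows and in 7 of the 19 windows of tested genes, against 33.8% of 32851 windows of all genes. The GC box stood in 22 of 38 and 11 of 19 windows, against 32.7% of all windows. These counts describe letters in the windows and not binding sites.

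Depth, recovered from the smallest steps in the TPM values, was 18.1 to 35.8 M reads per library (M, 1000000). Col18a1 rested on at least 14250 reads in a library, Col1a1 on 97.97 to 17020, and Col9a3 on as few as 0.9984, so small differences among the lowest genes were beyond this depth. Several single livers were the highest or lowest of their group in the summed TPM of the collagen genes without Col18a1. Replicate 2 of W/W with T0901317, replicate 2 of W/F with T0901317, replicate 4 of W/W with vehicle and replicate 1 of W/F with vehicle were high, and replicate 3 of F/F with T0901317 was low. In replicate 2 of W/F with T0901317, the summed TPM of 4 myofibroblast markers was also the highest of its group (27.4, with the lowest liver at 8.95), and in replicate 3 of F/F with T0901317 it was the lowest (32.3, with the highest at 71.0); their part in the collagen values was not tested.

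Col18a1 made up most of the collagen RNA of control livers. It stood at 306 ± 23.7 TPM in W/W on chow and at 293 to 343 TPM in the means of the 9 groups, with single livers from 247 to 382 TPM. All 44 chain genes together summed to 398 ± 23.6 TPM (SD, n = 4) in W/W on chow and to 381 ± 40.6 TPM in W/W on the MASH diet, of which Col18a1 gave 77.0% and 76.8%. In W/F on the MASH diet the sum was 876 ± 92.5 TPM with 34.5% from Col18a1, and in F/F it was 641 ± 109 TPM on chow (49.0%) and 1357 ± 127 TPM on the MASH diet (21.8%). Every F/F liver on the MASH diet with vehicle exceeded every liver of the other 8 groups in this sum, and the F/F livers with T0901317 (700.0 to 1036 TPM) overlapped the W/F livers with vehicle. The fibrillar chains rose from 12.5% ± 2.19 of the collagen sum in W/W on chow to 50.6% ± 1.66 in F/F on the MASH diet, and Col1a1, Col1a2 and Col3a1 from 13.8% ± 3.28 to 58.2% ± 1.06 of the sum without Col18a1. The shares are a description and carry no test.

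**Figure D1:**
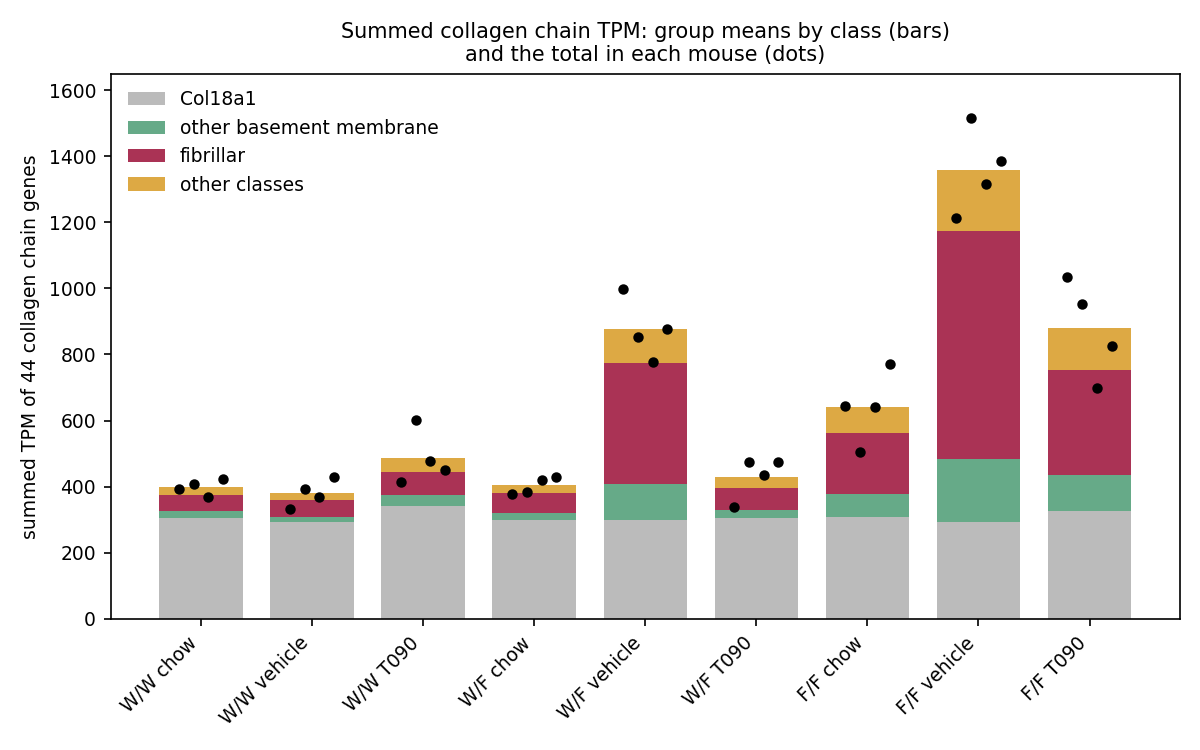
Summed TPM of the 44 collagen chain genes in each of the 9 groups, split into Col18a1, other basement membrane chains, fibrillar chains and other chains (bars, group means stacked; dots, the total in each liver; n = 4). The Col18a1 layer stays between 293 and 343 TPM, while the fibrillar layer grows from 49.6 TPM in W/W on chow to 689 TPM in F/F on the MASH diet with vehicle.

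Type I collagen showed the widest range of levels. Col1a1, which encodes the more abundant chain of the type I molecule, was at 3.47, 3.76, 2.04 and 3.17 TPM in the 4 W/W livers on chow, and at 2.41, 2.76, 1.96 and 8.44 TPM in W/W on the MASH diet with vehicle. In W/F it was at 3.89, 4.53, 3.99 and 4.24 TPM on chow and at 186, 109, 93.1 and 115 TPM on the MASH diet. In F/F it was at 45.2, 25.5, 44.3 and 69.1 TPM on chow and at 255, 299, 261 and 261 TPM on the MASH diet. Thus W/F livers lay beside W/W on chow and far above them on the MASH diet, while F/F livers were above both on either diet with no overlap. With T0901317 the Col1a1 level was 9.77, 31.2, 17.4 and 7.63 TPM in W/W, 6.36, 27.5, 5.66 and 9.20 TPM in W/F and 132, 139, 63.8 and 96.5 TPM in F/F. The treated W/W and W/F livers overlapped each other, and all treated F/F livers stayed above them.

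Col1a2, the partner chain of Col1a1, and Col3a1, the only chain of type III collagen, rose in the same order of genotypes on the MASH diet, W/W, W/F and F/F. Col1a2 was at 1.83 to 5.11 TPM in W/W, 51.9 to 85.7 TPM in W/F and 119 to 148 TPM in F/F on the MASH diet with vehicle. In W/W on chow it was at 1.78 to 3.22 TPM. Col3a1 was at 3.99, 5.89, 4.20 and 11.2 TPM in W/W, at 148, 127, 108 and 124 TPM in W/F and at 162, 271, 207 and 218 TPM in F/F on the MASH diet with vehicle. The 3 genotypes did not overlap in Col3a1 on this diet, and on chow F/F (38.2 to 95.9 TPM) stood apart from W/W (4.28 to 7.96 TPM). Col5a1 and Col5a2, chains of type V collagen, which is built into type I fibrils, were lower: Col5a1 had a mean of 1.87 TPM in W/W on chow and 22.2 TPM in F/F on the MASH diet, and Col5a2 had means of 0.732 and 18.9 TPM.

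Col5a3 and Col27a1 departed from the other fibrillar chains. Col5a3, another type V chain, was among the higher collagen genes of control livers, at 24.8, 17.2, 33.8 and 25.9 TPM in W/W on chow, and stood at 13.7, 25.6, 25.4 and 16.8 TPM in F/F on the MASH diet. Its groups overlapped there. W/W livers with T0901317, at 9.36, 9.39, 9.15 and 12.6 TPM, had the lowest mean of the 9 groups, and 1 W/F liver with T0901317 lay among them (10.4 TPM). Col27a1, the chain of a fibrillar collagen best known from cartilage, was at 22.5, 13.6, 5.93 and 17.3 TPM in W/W on the MASH diet, at 4.00, 3.75, 4.16 and 4.45 TPM in W/W with T0901317 and at 4.42, 2.19, 2.69 and 3.81 TPM in F/F on chow. Its highest livers were thus W/W, where most other fibrillar chains were lowest. The remaining 4 fibrillar genes, Col2a1, Col11a1, Col11a2 and Col24a1, stayed below 1 TPM in every liver.

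**Figure D2:**
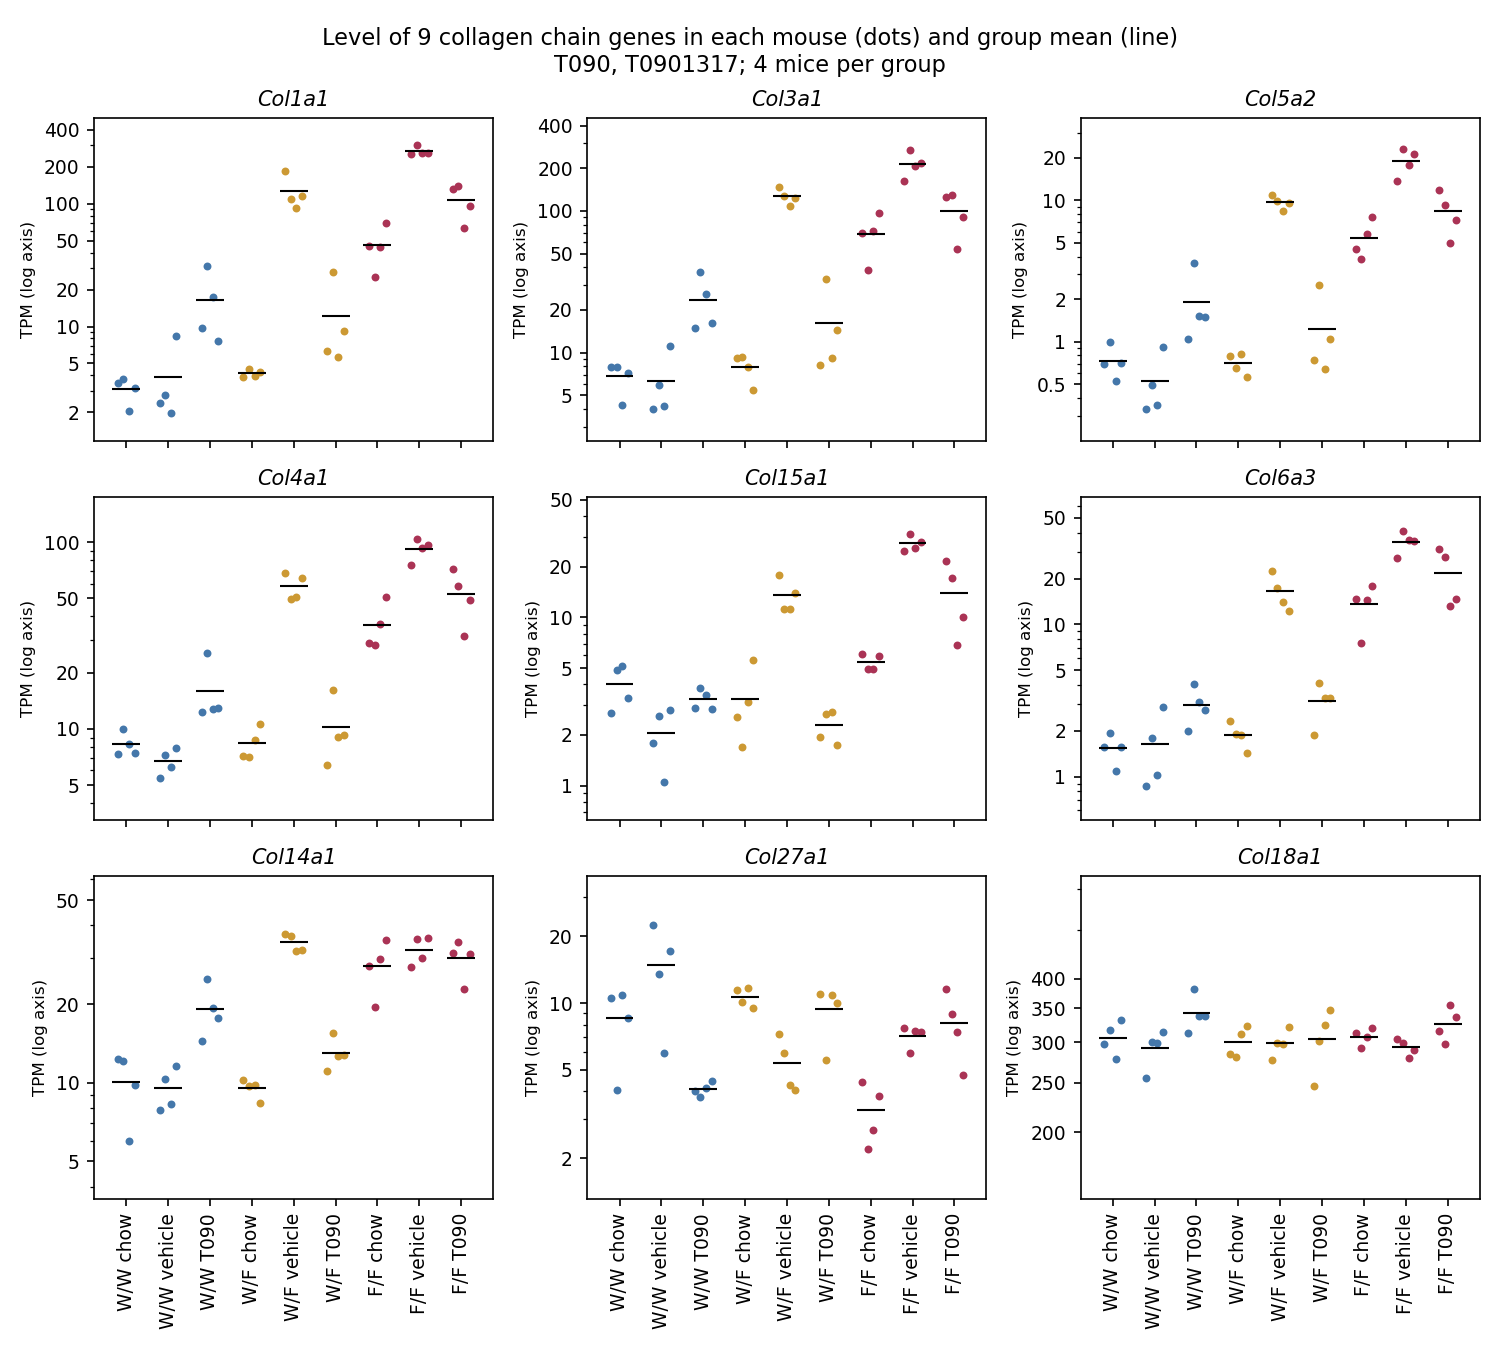
TPM (log axis) of 9 collagen chain genes in each of the 36 livers, by group (points, single livers; lines, group means; T090 stands for T0901317). Col1a1, Col3a1, Col5a2, Col4a1, Col15a1 and Col6a3 are highest in F/F on the MASH diet with vehicle, Col18a1 stays between 247 and 382 TPM, and Col27a1 is highest in W/W on the MASH diet with vehicle.

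Among basement membrane chains, Col4a1 and Col4a2, which together form the common type IV molecule, ranged less widely than type I. Col4a1 was at 5.46, 7.30, 6.25 and 7.88 TPM in W/W, 68.4, 49.5, 50.8 and 64.1 TPM in W/F and 75.3, 104, 93.2 and 96.0 TPM in F/F on the MASH diet with vehicle. The 3 genotypes were ordered without overlap. Col4a5, an X-linked type IV chain, had means of 0.366, 3.90 and 6.56 TPM in the same groups. Col15a1, whose product sits between basement membrane and fibrils, was at 1.79, 2.60, 1.05 and 2.80 TPM in W/W, 17.8, 11.2, 11.2 and 13.9 TPM in W/F and 25.0, 31.2, 25.7 and 28.3 TPM in F/F on the MASH diet, but on chow F/F (4.91 to 6.03 TPM) overlapped W/W (2.71 to 5.15 TPM). Col4a3, Col4a4 and Col4a6 had group means of at most 1.13 TPM.

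Among the other chains, the 3 of type VI collagen rose from W/W to W/F to F/F on the MASH diet. Col6a1 was at 3.75, 4.85, 4.35 and 6.84 TPM in W/W, 36.6, 31.5, 27.6 and 29.1 TPM in W/F and 61.3, 78.6, 62.5 and 78.0 TPM in F/F on the MASH diet with vehicle. Col6a2 and Col6a3 kept the same order of these 3 groups, with means of 1.45, 9.62 and 26.5 TPM and of 1.64, 16.5 and 34.9 TPM. Col14a1, a fibril-associated chain, had a different profile: it was at 7.90, 10.3, 8.33 and 11.6 TPM in W/W on the MASH diet, at 37.1, 36.5, 32.0 and 32.3 TPM in W/F, and in F/F at 27.9, 19.4, 29.7 and 35.3 TPM on chow, 27.8, 35.6, 30.0 and 35.8 TPM on the MASH diet and 31.4, 34.7, 22.9 and 31.0 TPM with T0901317. These last 4 groups overlapped, so Col14a1 lay in a shared range in W/F on the MASH diet and in F/F under all 3 treatments, above every W/W liver on that diet with vehicle. Col12a1, Col16a1, Col8a1 and Col9a3 were at group means of at most 9.38 TPM (Col16a1, F/F on the MASH diet), and Col13a1, a transmembrane chain, stayed between group means of 1.20 and 2.42 TPM.

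**Figure D3:**
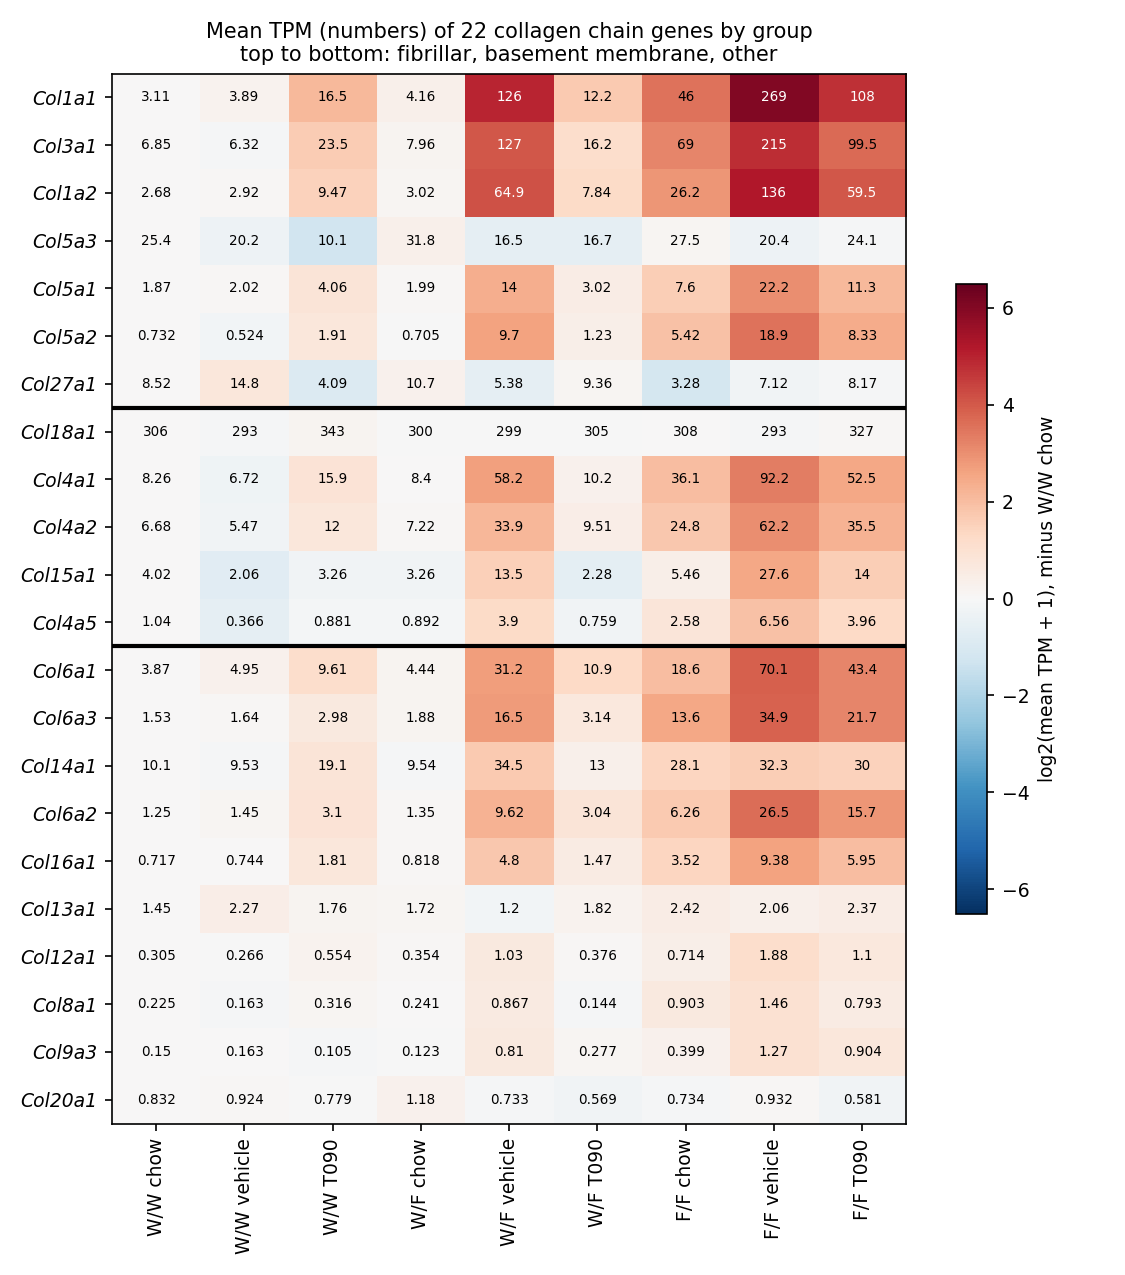
Mean TPM (printed in each cell) of the 22 tested collagen chain genes in the 9 groups, coloured by the log2(mean TPM + 1) minus that of W/W on chow. Fibrillar, type IV and type VI chains are raised in F/F on chow and in W/F and F/F on the MASH diet with vehicle. On this deposited scale Col18a1 is even across groups, and Col27a1 and Col5a3 take the opposite colour in several groups.

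Differences between groups were tested with limma on log2(TPM + 1) over 16638 genes with Benjamini-Hochberg adjustment, and a gene was called at an adjusted p under 0.05; fold changes are log2 differences with their standard errors. Comparisons share groups and are therefore not independent. The median gene was itself shifted in several comparisons, by up to 0.70 between F/F and W/W on the MASH diet. TPM values fill a fixed total, but whether this made the shift was not tested. The same calls were therefore also made after each library was rescaled to a common median over 14786 genes. This brought the shift of 0.70 to 0.03. Both are given below, the second as "rescaled".

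On chow, F/F livers carried more of most collagen chains than W/W livers, whereas W/F livers did not. In F/F against W/W, 17 of the 22 tested collagen genes were called, 16 higher and 1 lower, against 43.0% of all genes tested called higher and 3.65% lower. The median difference was 1.39 for the tested collagen genes and 0.29 for all genes. Rescaled, 14 were higher and 2 lower against 15.9% and 14.0% of all genes, with medians of 1.09 and 0.00. The largest rises were those of Col1a1 (3.45, SE 0.39, adjusted p 5.74e-08), Col3a1 (3.12, SE 0.35, 4.43e-08) and Col1a2 (2.84, SE 0.33, 6.82e-08). Col6a3 (2.48), Col6a1 (2.01), Col4a1 (1.97), Col5a2 (1.86), Col4a2 (1.72), Col6a2 (1.63), Col5a1 (1.56), Col14a1 (1.41) and Col16a1 (1.36) followed, all without overlap. Col27a1 fell by 1.11 (SE 0.28, adjusted p 0.00219) with overlapping livers, and Col15a1 was not called (5.46 against 4.02 TPM, adjusted p 0.211). The rise of Col13a1 (0.45, adjusted p 0.0365) was lost when any of 5 livers was left out and on rescaling, and that of Col12a1 (0.38) when F/F replicate 4 was left out and on rescaling. On chow, summed stellate cell markers were at 135 to 215 TPM in F/F and 66.1 to 119 TPM in W/W (8 of 9 tested markers higher). Of the myofibroblast markers, Timp1 (3.76) and Tagln (1.16) were higher, and Acta2 (0.41) and Myl9 (0.13) were not called. Of the portal fibroblast and mesothelial markers, Entpd2, Fbln2 and Gpm6a were higher, and Msln, Thy1 and Upk3b were not called. Cholangiocyte markers were at 721 to 982 against 50.1 to 61.6 TPM (6 of 6 higher). Among these 6, Spp1 rose most (3.91) and Cftr least (0.76), so a summed range does not give the rise of each marker. The part of all these markers in the collagen differences was not tested.

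Between W/F and W/W on chow, limma called 0 of the 22 collagen genes, and 0 had an unadjusted p under 0.05, against 0.487% of all genes called. After rescaling the count was again 0, against 0.601%. Col1a1 had means of 4.16 and 3.11 TPM and Col3a1 of 7.96 and 6.85 TPM. Between F/F and W/F on chow, 16 collagen genes were higher and 1 was lower, against 37.9% and 3.43% of all genes (rescaled, 14 and 3 against 16.5% and 14.7%). Col1a1 was higher by 3.11 (SE 0.39, adjusted p 4.48e-07), and Col27a1 fell by 1.48 (SE 0.28, adjusted p 0.000148), here without overlap of the livers (2.19 to 4.42 TPM in F/F, 9.53 to 11.6 TPM in W/F).

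On the MASH diet with vehicle, W/F livers did differ from W/W livers. Of the 22 collagen genes 17 were higher and 2 lower, against 61.6% and 6.83% of all genes; rescaled, 17 were higher and 5 lower against 27.6% and 25.5%. The median difference was 1.98 for the collagen genes and 0.52 for all genes (1.56 and 0.02 rescaled). Col1a1 rose by 4.81 (SE 0.39, adjusted p 1.4e-11; 4.23 rescaled), Col3a1 by 4.22 (adjusted p 1.74e-11) and Col1a2 by 4.12 (8.42e-12). The type IV chains Col4a1 (2.94), Col4a2 (2.42) and Col4a5 (1.84), the type VI chains Col6a3 (2.76), Col6a1 (2.46) and Col6a2 (2.11), and Col15a1 (2.27) and Col14a1 (1.76) rose without overlap. The 2 genes called lower were Col27a1, which fell by 1.21 (adjusted p 0.000414) with overlap, and Col13a1, which fell by 0.58 (adjusted p 0.00392). Stellate cell markers were higher in 8 of 9, at a sum of 199 to 231 against 124 to 150.2 TPM (rescaled, 7 higher and 1 lower). Myofibroblast markers were higher in 3 of 4 (73.8 to 84.4 against 6.01 to 16.4 TPM) and cholangiocyte markers in 6 of 6 (1163 to 1591 against 54.0 to 61.5 TPM). Of the cholangiocyte markers, Spp1 rose most (4.64) and Cftr least (0.82). Of the myofibroblast markers, Timp1 rose by 5.34, Tagln by 1.79 and Acta2 by 1.75, and Myl9 (0.52) was not called. The part of all these markers in the collagen differences was not tested.

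In F/F against W/W on the MASH diet with vehicle, 17 collagen genes were higher and 1 lower, against 69.3% and 7.13% of all genes. Rescaled, 17 were higher and 4 lower against 31.0% and 28.1%. The median difference was 2.76 for the collagen genes and 0.70 for all genes (2.08 and 0.03 rescaled), and by class it was 3.70 for the 7 fibrillar, 3.26 for the 5 basement membrane and 1.42 for the 10 other chains. Col1a1 rose by 5.95 (SE 0.39, adjusted p 5.67e-14; 5.17 rescaled), Col1a2 by 5.19 (2.16e-14) and Col3a1 by 4.96 (2.05e-13). Col6a3 (3.81), Col5a2 (3.70), Col4a1 (3.60), Col6a1 (3.60), Col6a2 (3.50), Col4a2 (3.28), Col15a1 (3.26) and Col5a1 (2.94) also rose without overlap. Col27a1 fell by 0.83 (adjusted p 0.00911) with overlap, and without W/W replicate 1 it was no longer called (adjusted p 0.0641). Col5a3 was not called (20.4 against 20.2 TPM, adjusted p 0.996), and Col18a1 was not called as deposited (293 TPM in both groups, adjusted p 0.944) but was lower by 0.86 after rescaling (adjusted p 9.51e-10), as Col5a3 was by 0.82. Whether Col18a1 RNA stayed level or fell therefore depends on the scale: relative to all transcripts it stayed level, and relative to the median gene it was lower. Over the 15 pairwise comparisons of groups, Col18a1 was called in 0 as deposited. Rescaled, it was called higher in 2 and lower in 8.

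F/F livers on the MASH diet carried more of the 3 type VI chains than W/F livers, together with Col15a1, Col5a2, Col4a2, Col16a1 and others. In all, 14 collagen genes were higher and 0 lower, against 19.0% and 2.3% of all genes, and rescaled 7 were higher against 5.74%. The 7 were Col6a2 (1.39, SE 0.25, adjusted p 0.000206), Col6a1 (1.14, SE 0.27, 0.00346), Col6a3 (1.05), Col15a1 (0.99), Col5a2 (0.88), Col4a2 (0.86) and Col16a1 (0.85), and each also stayed called when any single liver was left out. Col1a1 (1.14, SE 0.39, adjusted p 0.0370) lost its call after rescaling and when any F/F liver or W/F replicate 2, 3 or 4 was left out (adjusted p up to 0.0990), and Col1a2 (1.07, adjusted p 0.0190) lost it without W/F replicate 3 (0.0576). Col3a1 was not called (215 against 127 TPM, adjusted p 0.131), nor was Col14a1 (32.3 against 34.5 TPM, adjusted p 0.747). Without F/F replicate 4 the count was 9. Of the stellate cell markers 3 of 9 were higher and 1 lower in this comparison, while all 6 cholangiocyte markers were higher, at a sum of 2909 to 3556 against 1163 to 1591 TPM. The myofibroblast markers Acta2, Myl9, Tagln and Timp1 were not called. Of the portal fibroblast and mesothelial markers, Entpd2, Fbln2, Gpm6a and Msln were higher, and Thy1 and Upk3b were not called. The part of all these markers was not tested.

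Diet with cohort was compared within each genotype. In W/W, limma called 0 of 22 collagen genes between the MASH diet with vehicle and chow, and 4 had an unadjusted p under 0.05, against 12.9% of all genes called. Rescaling called 2 (15.4% of all genes), Col13a1 higher (0.54, adjusted p 0.0184) and Col4a5 lower (-0.58, adjusted p 0.0277). Col1a1 stood at 3.89 against 3.11 TPM (adjusted p 0.929) and Col15a1 at 2.06 against 4.02 TPM (0.0568). In W/F, 17 collagen genes were higher and 2 lower on the MASH diet, against 52.4% and 8.53% of all genes (rescaled, 17 and 5 against 27.9% and 27.0%). Col1a1 rose by 4.57 (SE 0.39, adjusted p 3.33e-11), Col4a1 by 2.66, Col6a3 by 2.58 and Col14a1 by 1.75, while Col5a3 fell by 0.87 (adjusted p 0.00372) and Col27a1 by 0.90 (0.00727), both without overlap.

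In F/F, 17 collagen genes were higher and 0 lower on the MASH diet, against 46.5% and 9.27% of all genes (rescaled, 15 and 2 against 25.7% and 21.3%). Col1a1 rose by 2.60 (SE 0.39, adjusted p 1.94e-06) from its raised chow level, Col1a2 by 2.38 and Col15a1 by 2.15 (SE 0.25, adjusted p 3.94e-08). Type VI chains rose by 1.34 (Col6a3) to 1.97 (Col6a2). Col27a1 rose as well, by 0.95 (adjusted p 0.00539), the opposite direction to W/F (the difference between W/F and F/F was not tested), but it was not called after rescaling. Col14a1 was not called (32.3 against 28.1 TPM, adjusted p 0.308), and the call of Col8a1 (0.39) was lost when any of 4 livers was left out.

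The difference between the MASH diet with vehicle and chow, which also holds cohort and vehicle gavage, was itself unequal between genotypes. It is called the diet response. Compared with W/W, the W/F response was larger for 17 collagen genes and smaller for 2, against 49.5% and 5.13% of all genes (rescaled, 16 and 5 against 21.0% and 19.1%). The excess was 4.47 for Col1a1, 4.02 for Col3a1 and 3.99 for Col1a2, and it was negative for Col27a1 (-1.57) and Col13a1 (-0.75). The F/F response exceeded that of W/W for 15 collagen genes and was smaller for 0, against 41.5% and 4.54% (rescaled, 14 and 2 against 14.5% and 12.3%). Col15a1 had the largest excess (2.87), ahead of Col1a1 (2.50) and Col1a2 (2.35). Col14a1 had no called difference (adjusted p 0.419).

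On the MASH diet, T0901317 went with higher RNA of 5 fibrillar chains, Col4a1 and Col4a2 and lower RNA of Col27a1 and Col5a3 in W/W, and with lower RNA of most tested collagen chains in W/F and F/F. In W/W, 9 collagen genes were higher and 2 lower than with vehicle, against 7.87% and 2.91% of all genes (rescaled, 10 and 2 against 8.0% and 5.52%). The median difference was 0.63 for the collagen genes and 0.06 for all genes. All 7 tested fibrillar chains were called: Col1a1 rose by 1.81 (SE 0.39, adjusted p 0.00187), Col3a1 by 1.75 (0.000782), Col1a2 by 1.34 (0.00568), Col5a2 by 0.88 (0.0120) and Col5a1 by 0.69 (0.0339), while Col27a1 fell by 1.50 (SE 0.28, adjusted p 0.000431) and Col5a3 by 0.91 (0.0163). Col4a1 (1.08), Col4a2 (0.97), Col14a1 (0.92) and Col16a1 (0.64) rose too. Col1a1 overlapped between the groups through vehicle replicate 4 (8.44 TPM) and treated replicate 4 (7.63 TPM), and the others called did not overlap. The calls of Col5a1 and Col16a1 were lost without vehicle replicate 1 or 3 or treated replicate 2 or 3 (adjusted p up to 0.214), that of Col5a2 without treated replicate 2 (0.0912), and that of Col5a3 without vehicle replicate 3 or 4 (0.0515). A fit to these 2 groups alone called 6. The rise was small beside the genotype differences, since the highest treated W/W liver (Col1a1, 31.2 TPM) lay below the lowest W/F liver with vehicle (93.1 TPM). Of the stellate cell markers 1 of 9 was higher and of the myofibroblast markers 0 of 4. Of the cholangiocyte markers 1 of 6 was higher, Spp1 by 1.15 (summed 94.3 to 170 against 54.0 to 61.5 TPM). The part of all these markers was not tested.

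In W/F, 17 collagen genes were lower and 1 was higher with T0901317, against 59.3% and 6.59% of all genes (rescaled, 17 and 3 against 27.1% and 23.6%). The median difference was -1.43 for the collagen genes and -0.49 for all genes (-0.89 and -0.04 rescaled). Col1a1 fell by 3.49 (SE 0.39, adjusted p 1.1e-08), Col3a1 by 3.09, Col1a2 by 3.04 (4.63e-09), Col4a1 by 2.45, Col5a2 by 2.33, Col15a1 by 2.14 and Col6a3 by 2.08. No treated liver overlapped a vehicle liver in these 7 genes, treated replicate 2 included. Col27a1 was higher by 0.69 (adjusted p 0.0335) with overlap, and that call was lost without any of 5 livers (adjusted p up to 0.0951). Stellate cell markers fell with the collagen genes (8 of 9 lower, 1 higher; summed 151 to 167 against 199 to 231 TPM), as did myofibroblast markers (3 of 4; 8.95 to 27.4 against 73.8 to 84.4 TPM) and cholangiocyte markers (6 of 6; 102 to 278 against 1163 to 1591 TPM). Their part in the collagen differences was not tested.

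In F/F, 15 collagen genes were lower and 0 higher with T0901317, against 31.2% and 3.95% of all genes (rescaled, 8 and 1 against 7.98% and 8.32%). The 8 that also passed after rescaling were fibrillar or basement membrane chains: Col1a1 fell by 1.37 (SE 0.39, adjusted p 0.00856), Col1a2 by 1.23 (0.00503), Col3a1 by 1.16 (0.0116), Col5a2 by 1.13 (0.000751), Col15a1 by 1.05, Col5a1 by 0.94, Col4a1 by 0.85 and Col4a2 by 0.84. The 3 type VI chains (by 0.79 for Col6a2, 0.74 for Col6a3 and 0.71 for Col6a1) were called as deposited only. Without replicate 3 of the treated group 7 collagen genes were called, with Col1a1 at -1.14 (adjusted p 0.0517), Col3a1 at -0.89 (0.0764) and Col4a1 at -0.63 (0.0590). Col14a1 was not called (30.0 against 32.3 TPM, adjusted p 0.651), although it fell by 1.35 in W/F. All 6 cholangiocyte markers were lower with the collagen genes (summed 757 to 1697 against 2909 to 3556 TPM; 4 of 6 rescaled), Spp1 by 1.64. Of the stellate cell markers 2 of 9 were lower, Hgf and Rgs5, with overlapping sums (172.5 to 251 against 237 to 286 TPM), and of the myofibroblast markers 1 of 4, Timp1 (32.3 to 71.0 against 79.9 to 124 TPM); their part was not tested.

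**Figure D4:**
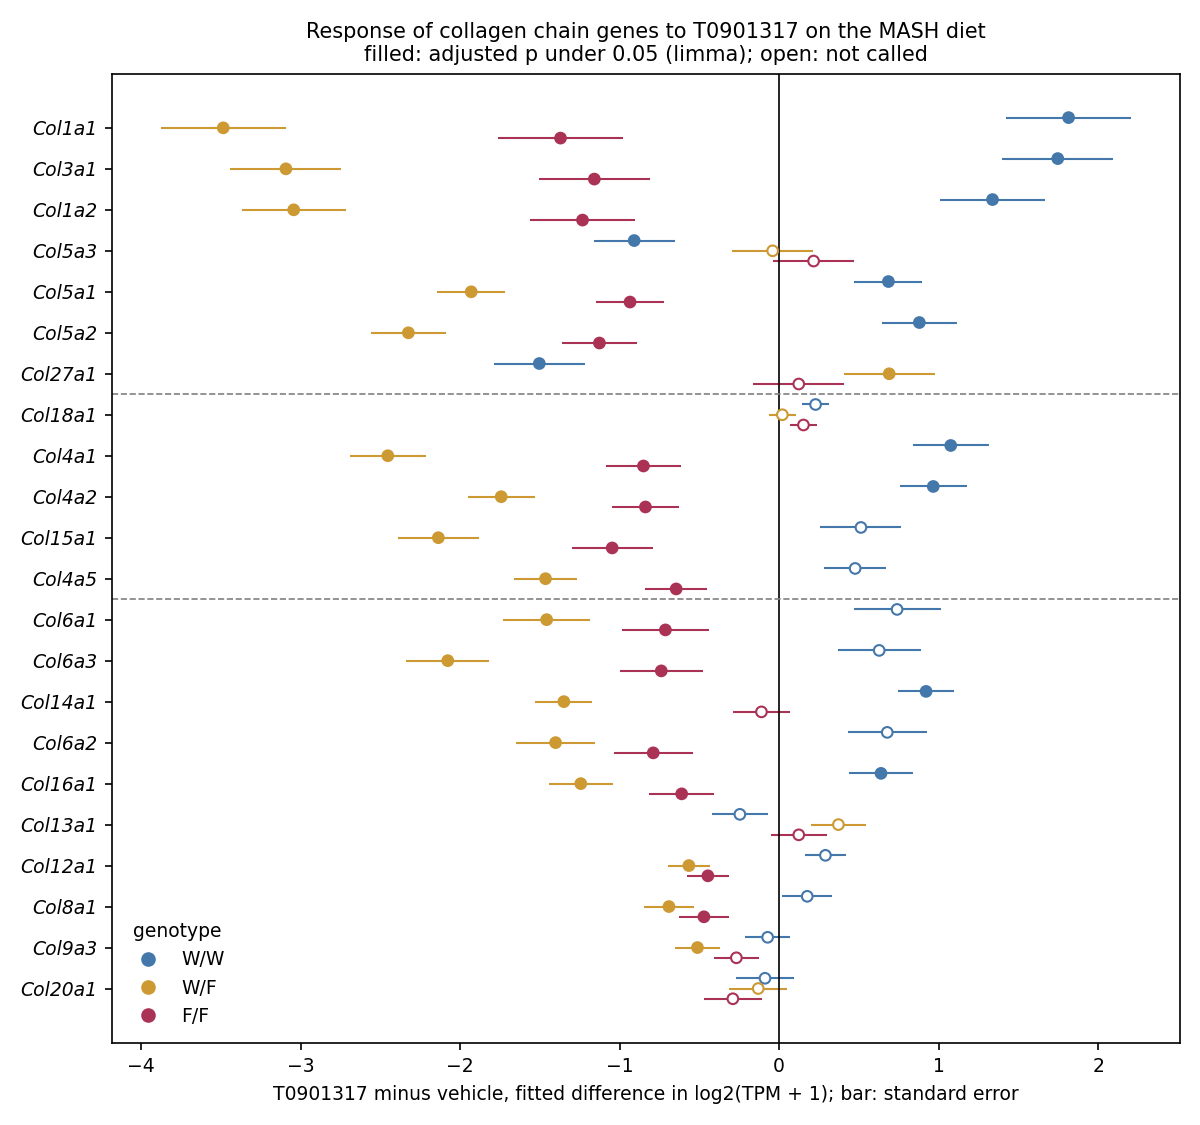
Log2 difference in TPM + 1 between T0901317 and vehicle for the tested collagen chain genes in W/W, W/F and F/F livers on the MASH diet (points, fitted difference; bars, standard error; filled points, adjusted p under 0.05; n = 4 against 4). For Col1a1 the W/W point lies at 1.81, the W/F point at -3.49 and the F/F point at -1.37, and Col27a1 lies on the other side of 0 from Col1a1 in W/W and W/F.

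The response to T0901317 differed between W/F and W/W in 19 collagen genes, 16 with a lower and 3 with a higher response in W/F, against 53.2% and 5.27% of all genes (rescaled, 16 and 4 against 24.0% and 19.9%). The difference in response was -5.30 for Col1a1, -4.84 for Col3a1 and -4.38 for Col1a2, and it was positive for Col27a1 (2.19), Col5a3 (0.87) and Col13a1 (0.62). The fall was smaller in F/F than in W/F: 11 collagen genes had a higher response in F/F and 0 a lower one, against 17.6% and 1.61% of all genes (rescaled, 7 against 7.71%). The difference was 2.11 (SE 0.56, adjusted p 0.00896) for Col1a1, 1.93 for Col3a1, 1.81 for Col1a2, 1.60 for Col4a1, 1.34 for Col6a3, 1.24 for Col14a1 and 1.20 for Col5a2. These 7 also passed after rescaling and without any single liver, whereas Col15a1, Col5a1, Col4a2 and Col4a5 did not, and without replicate 1 of W/F or of F/F with T0901317 the count was 7.

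With T0901317, 1 collagen gene was called between W/F and W/W. This was Col27a1, higher by 0.99 (adjusted p 0.0221), against 3.65% of all genes higher and 6.23% lower, and this call was lost without any of 4 livers (adjusted p up to 0.0689). Rescaled, Col27a1 was again the 1 gene called higher (5.08% of all genes) and Col14a1 the 1 called lower, by 0.50 (adjusted p 0.0235; 8.28% of all genes), and 4 genes were called without W/F replicate 2. Col1a1 stood at 12.2 against 16.5 TPM (adjusted p 0.527) and Col3a1 at 16.2 against 23.5 TPM (0.310). F/F livers remained above both. Against W/W, 19 collagen genes were higher and 0 lower, against 56.3% and 6.96% of all genes (rescaled, 15 and 1 against 24.2% and 22.7%), with Col1a1 at 2.77, Col1a2 at 2.62, Col6a3 at 2.45 and Col5a3 at 1.12 (adjusted p 0.000334). Against W/F, 17 were higher and 0 lower, against 58.5% and 4.08% (rescaled, 17 and 1 against 21.5% and 18.9%), with Col1a1 at 3.25, Col3a1 at 2.67 and Col14a1 at 1.14.

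Chains of the same molecule did not always keep the same ratio. These ratios do not depend on how a library is scaled. Col1a1 to Col1a2 was 1.16 ± 0.130 in W/W on chow, and on the MASH diet with vehicle it was 1.24 ± 0.315 for W/W livers, 1.91 ± 0.200 for W/F livers and 1.99 ± 0.138 for F/F livers. Every F/F liver (1.81 to 2.15) lay above every W/W liver (0.947 to 1.65) on that diet, a log2 difference of 0.72 (SE 0.19; exact two-sided permutation test, p = 0.0286, the smallest that 70 arrangements allow, adjusted p = 0.0571 over 4 tests). With T0901317 the ratio in W/F was 1.46 ± 0.190, a log2 difference of -0.39 from vehicle (exact permutation p = 0.0571, adjusted 0.0571). Col4a1 to Col4a2 was 1.23 ± 0.153 for W/W livers, 1.73 ± 0.198 for W/F livers and 1.48 ± 0.103 for F/F livers on the MASH diet, and 1.07 ± 0.324 in W/F with T0901317 (exact permutation p = 0.0571 for F/F against W/W and for T0901317 in W/F, adjusted 0.0571). None of the 4 passed the adjusted threshold, which 4 livers against 4 could reach only if more of them stood at the smallest p. Col6a1 to Col6a2 stayed between group means of 2.65 and 3.64. Col5a1 to Col5a2 lay at 1.19 ± 0.136 in F/F on the MASH diet and 4.27 ± 1.14 in W/W. In these W/W livers Col5a2 was at only 0.3335 to 0.9115 TPM. Neither of these 2 ratios was tested.

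**Figure D5:**
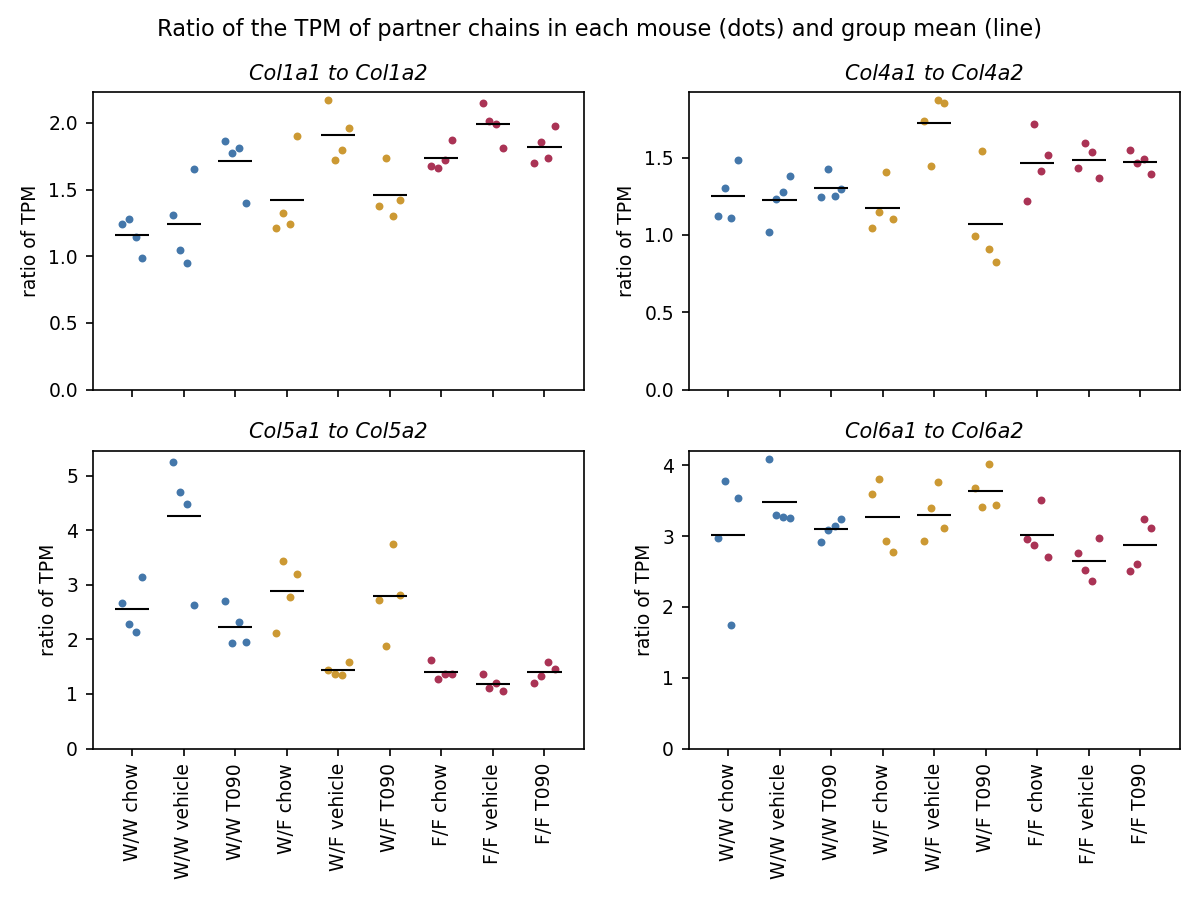
Ratio of TPM between chains of the same molecule in each liver (points) by group, with group means (lines; T090 stands for T0901317): Col1a1 to Col1a2, Col4a1 to Col4a2, Col5a1 to Col5a2 and Col6a1 to Col6a2. Col1a1 to Col1a2 lies near 2 in F/F on the MASH diet (1.81 to 2.15) and near 1 in W/W on chow (0.987 to 1.28), and Col5a1 to Col5a2 moves the other way.

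The 22 collagen genes below the filter were low throughout. Col2a1, Col9a1, Col11a1, Col17a1, Col19a1 and Col26a1 never reached 0.1 TPM, and each was at 0 in 25 to 32 of the 36 livers. Without the filter, 28 of all 44 genes were higher and 1 was lower in F/F against W/W on the MASH diet with vehicle, against 43.1% and 3.75% of 32923 genes. Of these, 11 were genes below the filter, among them Col4a3, Col4a4 and Col4a6, type IV chains whose F/F means were 0.620, 0.546 and 1.13 TPM, and the type VI chains Col6a5 (0.819 TPM) and Col6a6 (0.709 TPM). Col4a6 was at 0.0129 to 0.0862 TPM in W/W and 0.809 to 1.50 TPM in F/F, with no overlap. On chow, 18 of the 44 genes were higher and 2 lower in F/F than in W/W without the filter, against 21.1% and 1.78% of genes, and of the low genes Col28a1, Col4a4 and Col4a6 were higher and Col25a1 was lower. There Col25a1 was at 1.12 TPM in W/W replicate 2 and 0.0634 to 0.298 TPM in the other W/W livers, which overlapped F/F. Col28a1 was at 1.10 TPM in F/F replicate 2 and 0.2135 to 0.376 TPM in the other F/F livers. Values this low rest on few reads.

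Genes that modify and crosslink collagen were also higher in F/F than in W/W on the MASH diet with vehicle, where 69.3% of all genes were higher and 7.13% lower (31.0% and 28.1% rescaled). Of 17 tested genes of procollagen modification and folding, 15 were higher and 0 lower (median 1.59; 12 and 2 rescaled), with Serpinh1, the collagen chaperone, rising by 3.29 (9.79 to 104 TPM) and Sparc by 3.53. All 5 crosslinking genes were higher (median 2.85; 5 rescaled), among them Lox, a lysyl oxidase (2.99, from 0.157 to 8.35 TPM), Loxl1 (3.33) and Loxl2 (2.85). Of 10 genes of procollagen export and propeptide cleavage, 6 were higher and 1 lower (median 0.41), but 3 were higher and 6 lower after rescaling (median -0.45). The propeptide protease Adamts2 rose by 3.06 and Pcolce by 2.78, while Pcolce2 fell by 0.79.

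Most genes that bind collagen were higher in the same comparison, in which 69.3% of all genes were higher (31.0% rescaled). Of 8 fibril-associated proteoglycans and glycoproteins 7 were higher and 0 lower (7 and 1 rescaled), led by Lum (4.89, from 5.98 to 207 TPM), and of 15 basement membrane partners 13 were higher and 1 lower (12 and 2 rescaled), led by Nid1 (3.89, from 3.52 to 66.6 TPM). All 8 tested collagen receptors were higher (6 rescaled), among them Ddr1, a kinase that binds collagen (4.62, from 1.03 to 49.1 TPM). All 6 tested collagen-degrading enzymes were also higher (6 rescaled), with Ctsk at 4.86 and Mmp2 at 4.39, and all 14 tested TGF-beta genes (11 rescaled), with Tgfb1 at 2.70. With T0901317 in W/F, where 59.3% of all genes were lower (27.1% rescaled), 15 of 17 modification genes were lower (10 rescaled), 5 of 5 crosslinking genes (5 rescaled), 8 of 8 fibril-associated genes (5 rescaled) and 6 of 6 degrading enzymes (6 rescaled), with Lox falling by 2.37, Serpinh1 by 1.70 and Ctsk by 3.41. In W/W with T0901317, where 7.87% of all genes were higher and 2.91% lower, 5 of 17 modification genes were higher and 0 lower (5 and 1 rescaled), among them Sparc (1.17), and 1 of 5 crosslinking genes, Loxl2 (0.73; 1 rescaled), while 0 of the 6 degrading enzymes was called in either direction. Crosslinking genes and genes for degrading collagen were thus both higher in F/F than in W/W livers on the MASH diet, on either scale.

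Markers of liver cell types were also compared between F/F and W/W on the MASH diet with vehicle. There 69.3% of all genes were higher and 7.13% lower (31.0% and 28.1% rescaled). Rescaled marker counts are given for the stellate cell list only. Stellate cell markers were higher in 8 of 9 (rescaled, 4 higher and 2 lower), with a summed level of 237 to 286 against 124 to 150.2 TPM. Myofibroblast markers were higher in 3 of 4 (79.9 to 124 against 6.01 to 16.4 TPM) and portal fibroblast and mesothelial markers in 5 of 6 (64.9 to 81.3 against 7.00 to 9.56 TPM). Among the myofibroblast markers, Timp1 rose by 6.03, Tagln by 1.80 and Acta2 by 1.53, and Myl9 (0.29) was not called. Their summed range therefore does not give the rise of each marker. Cholangiocyte markers were higher in 6 of 6 (2909 to 3556 against 54.0 to 61.5 TPM), neutrophil markers in 3 of 3 and macrophage markers in 3 of 6 with 3 lower. Endothelial markers were higher in 3 and lower in 2 of 7, and T cell and B cell markers were each higher in 1 of 2 tested. Hepatocyte markers were lower in 6 of 7, at 35837 to 39014 against 69929 to 91015 TPM and still had the highest sum of any of these lists. No marker was at 0 in all livers of a group, and the part of these markers in the collagen differences was not tested.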

How the data were processed

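PolyA RNA of 36 mouse livers was sequenced, 4 mice in each of 9 groups, and the authors deposited 1 table of TPM. Per the submitters' processing notes, reads were handled with Trimmomatic 0.36, STAR 2.5.2b and featureCounts of Subread 1.5.2 on GRCm38 (mm10). How TPM were made from counts, the annotation and the strand setting are not given in the sources used here. Groups and replicate numbers came from the sample labels, and nothing in them says that equal numbers pair mice.

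Every column summed to 1000000 TPM. Depth was recovered from genes between 0.02 and 0.4 TPM with GENCODE M21 exon lengths (93.7% to 95.7% of genes under 20 reads within 0.1 of a whole number, 20% by chance). Intervals and limits at low reads cover counting error only. The analysis used log2(TPM + 1) of 16638 genes that reached 1 TPM in 4 or more samples. Adding 1 understates the change of low genes. A linear model with 1 mean per group was fitted with limma 3.58.1 (R 4.3.3, moderated variances with trend), and two-sided p-values received Benjamini-Hochberg adjustment across all genes of each comparison, with a threshold of 0.05. Ratios of chains were compared by exact permutation (scipy 1.17.1). The fit was tested on simulated data.

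Alternatives were TPM rescaled to a common median, a pseudocount of 0.1 TPM, no filter, a filter of 5 TPM, a fit to the compared groups alone, a replicate block and leaving out each mouse. Promoter sequences came from RefSeq's GRCm38.p6 table. The collagen genes and the gene lists were chosen with earlier results of these data known. Named genes were a set list of major chains, up to 10 called genes per comparison whose higher group averaged 1 TPM or more and did not overlap the other, and every gene called against the majority.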

Additional observations from a re-analysis of the deposited data

Results flagged for a closer look

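In 7 of 144 groups of 4 livers examined, 1 liver stood apart from the other 3 by more than Dixon's 95% critical value, a rate close to the 1 in 20 that chance gives. These were Col1a1 in W/W with vehicle, replicate 4 (8.44 TPM), in W/F with T0901317, replicate 2 (27.5 TPM), and in F/F with vehicle, replicate 2 (299 TPM). Col4a1 (25.7 TPM) and Col4a2 (18.0 TPM) stood apart in the same liver, replicate 2 of W/W with T0901317. Col8a1 was high in replicate 1 of W/F with vehicle (1.39 TPM), and Col27a1 was low in replicate 2 of F/F with vehicle (5.93 TPM).

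Responses that differed between genotypes by limma's test of the difference were the following. The diet response of W/F differed from that of W/W in 19 collagen genes, by 4.47 for Col1a1, 4.02 for Col3a1, 3.99 for Col1a2, -0.75 for Col13a1 and -1.57 for Col27a1. The diet response of F/F differed from that of W/W in 15, by 2.87 for Col15a1, 2.50 for Col1a1 and 2.35 for Col1a2. The T0901317 response of W/F differed from that of W/W in 19, by -5.30 for Col1a1, -4.84 for Col3a1, -4.38 for Col1a2, 0.62 for Col13a1, 2.19 for Col27a1 and 0.87 for Col5a3. The T0901317 response of F/F differed from that of W/F in 11, by 2.11 for Col1a1, 1.93 for Col3a1 and 1.81 for Col1a2.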

How the results depend on the processing

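None of the 228 called differences of named collagen genes and none of the 4 chain ratio differences changed sign under the alternatives run. Named genes include called genes chosen because their groups did not overlap, so these counts do not describe collagen genes in general. On rescaling, however, the procollagen export and cleavage list went from a median of 0.41 to -0.45 in F/F against W/W with vehicle, and Col18a1, which was not called there as deposited, was lower. Counts of called collagen genes moved by over 1.5 times in these cases. F/F against W/W with vehicle went from 18 to 29 without the filter, since 44 genes entered. F/F against W/F with vehicle went from 14 to 8 at a pseudocount of 0.1 TPM and to 7 rescaled. W/F against W/W with T0901317 went from 1 to 2 rescaled. The diet in W/W went from 0 to 2 at a pseudocount of 0.1 TPM, 2 rescaled and 1 at a filter of 5 TPM. T0901317 in W/W went from 11 to 6 in a fit to its 2 groups. T0901317 in F/F went from 15 to 9 at a pseudocount of 0.1 TPM and 9 rescaled, and its difference in response between F/F and W/F from 11 to 7 rescaled. Apart from the fewer or more genes and samples, the cause was not tested.

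With 1 TPM added to each chain, the log2 difference in Col1a1 to Col1a2 was 0.76 for F/F against W/W with vehicle and -0.44 for T0901317 in W/F, and that in Col4a1 to Col4a2 for F/F against W/W was 0.31, each at an adjusted exact permutation p of 0.0381. Adding 1 TPM pulls a ratio toward 1 most where the chains are low. With vehicle, Col1a2 was at 1.83 to 5.11 TPM in W/W and 119 to 148 TPM in F/F. These larger differences therefore cannot be told apart from the difference in level.

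Leaving out each mouse gave 9 to 15 called genes for F/F against W/F with vehicle, 0 to 4 for W/F against W/W with T0901317, 0 to 2 for the diet in W/W, 8 to 13 for T0901317 in W/W, 7 to 16 for T0901317 in F/F and 7 to 12 for the T0901317 response of F/F minus W/F. The log2 ratio differences ranged from 0.60 to 0.87 and -0.48 to -0.33 for Col1a1 to Col1a2 (F/F against W/W with vehicle, and T0901317 in W/F), and from 0.19 to 0.34 and -0.92 to -0.62 for Col4a1 to Col4a2.

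Same-numbered mice did not deviate together: over 15 comparisons with 4 pairs, the pair correlations of their deviations lay between -0.17 and 0.30, and in 0 comparisons was every pair over 0.1. With the replicate block, the 23 counts and ratio tests and 228 of 228 named gene results kept their call. Of the 228, 14 lost their call without the filter, 15 in the fit to the compared groups, 10 at a pseudocount of 0.1 TPM and 23 rescaled. At the filter of 5 TPM, 199 were tested and kept their call. Over the fits that left out 1 mouse, 2162 results kept their call and 110 lost it. Depth limits the genes below 1 TPM, whose values rest on few reads.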
